A study of Mus musculus with 6 samples.

Results

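Integrins and laminins form the contact between a muscle stem cell and the basement membrane that surrounds the muscle fibre. An integrin is a pair of 1 alpha and 1 beta chain that spans the cell membrane and binds proteins of the matrix outside. A laminin is a trimer of 1 alpha, 1 beta and 1 gamma chain, secreted into the basement membrane, where integrins and dystroglycan hold on to it. Muscle stem cells lie quiescent between the fibre and this sheet, and the receptor of alpha7 with beta1 is their best known laminin-binding integrin.

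Gene symbols of the form Itga, Itgb, Lama, Lamb or Lamc with a subunit number or the letters v, l, m or x were taken, with no condition on level, and 24 of the 12067 genes in the deposited table are described. They comprise 10 integrin alpha chains (Itga1, Itga3, Itga5, Itga6, Itga7, Itga8, Itga9, Itga10, Itga11 and Itgav), 6 integrin beta chains (Itgb1, Itgb2, Itgb4, Itgb5, Itgb7 and Itgb8) and 8 laminin chains (Lama2, Lama3, Lama4, Lama5, Lamb1, Lamb2, Lamc1 and Lamc3). Other subunits, Itga4 among them, were not analysed here.

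The cells were quiescent stem cells of limb muscle from male C57BL/6 mice, sorted for VCAM after cells with CD45, CD31 or Sca1 had been gated out, then stained with 5 uM ThiolTracker Violet, a dye that reports glutathione (GSH), and sorted again. There were 3 groups of 2 RNA-seq libraries each: old cells with low dye signal (old GSH-low, 23 months), old cells with high dye signal (old GSH-high, 23 months) and young cells (4 months), of which every cell was collected after staining because nearly all were GSH-high. An old library pools 2 animals and a young library holds 1, so age, pooling and the split by dye cannot be told apart in a comparison of old with young. The labels do not say whether an old GSH-low and an old GSH-high library came from the same pool, and p-values measure the spread between these libraries.

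Levels are given in RPKM, reads scaled to the length of the gene and the depth of the library, so that different genes can be set side by side. Differences are log2 fold changes of RPKM + 1 with their standard error (SE) from limma, and a gene was called where its Benjamini-Hochberg adjusted p over all 10609 tested genes was under 0.05. Adding 1 understates the change of low genes, so ratios of mean RPKM are given beside some of them. The whole reads behind the values came to 50704316 and 46993220 for old GSH-low, 68786190 and 60755914 for old GSH-high and 63108762 and 60046470 for young libraries, and the lowest value of any of the 24 genes rested on 21 reads. All 9 muscle stem cell markers were present in all 6 libraries, and not all were level. Myf5 lay between 75.8 and 87.2 RPKM and was not called, Pax7 rose in old GSH-low against old GSH-high (0.46 ± 0.09, SE, adjusted p = 0.0225, limma) and against young (0.55 ± 0.09, adjusted p = 0.00206), and 3 of the 9 fell in each old fraction against young. Of all tested genes 13.7% fell in old GSH-high and 18.7% in old GSH-low against young. Calcr, the calcitonin receptor of quiescent stem cells, had 22.9 and 19.8 RPKM in the old GSH-low libraries, 18.1 and 20.3 in the old GSH-high libraries and 40.2 and 46.6 in young libraries. No strand setting is stated for the counting, and gene models on the other strand cover 0.111% to 7.66% of the exon bases of Itga7, Itga8, Itgav, Itgb4, Lama2, Lama3 and Lamc3. Markers of several other cell types also differed between groups, and their values are given with the subunits. In such bulk samples fewer cells of a type and less RNA per cell cannot be told apart.

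The start regions of 3 integrin genes are shown because Itgb5 had the largest log2 fold change of RPKM + 1 of the tested subunits in old GSH-high against young, Itga11 the largest in old GSH-low against young, and Itgb1 was the most abundant and not called. Each window of 300 bases spans the RefSeq start of the gene (GRCm38.p6) and is written 5′ to 3′ on the strand of the gene. Itgb5 lies at chr16:33829665-33949338 on the plus strand (window chr16:33829415-33829714), Itga11 at chr9:62677826-62783982 on the plus strand (window chr9:62677605-62677904) and Itgb1 at chr8:128685654-128733200 on the plus strand (window chr8:128685404-128685703). Capitals mark GC boxes, the letters GGGCGG on either strand.
Itgb5: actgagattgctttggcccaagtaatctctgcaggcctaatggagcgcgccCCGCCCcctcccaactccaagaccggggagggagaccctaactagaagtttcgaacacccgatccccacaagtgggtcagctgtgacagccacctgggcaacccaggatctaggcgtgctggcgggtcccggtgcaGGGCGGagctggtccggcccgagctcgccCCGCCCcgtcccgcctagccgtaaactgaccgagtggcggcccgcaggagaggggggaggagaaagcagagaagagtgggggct
Itga11: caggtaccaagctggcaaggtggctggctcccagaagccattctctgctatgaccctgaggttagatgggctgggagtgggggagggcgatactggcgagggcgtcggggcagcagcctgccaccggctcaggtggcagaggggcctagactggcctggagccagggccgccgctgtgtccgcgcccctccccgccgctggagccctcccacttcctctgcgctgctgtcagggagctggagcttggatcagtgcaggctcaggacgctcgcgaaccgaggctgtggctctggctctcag
Itgb1: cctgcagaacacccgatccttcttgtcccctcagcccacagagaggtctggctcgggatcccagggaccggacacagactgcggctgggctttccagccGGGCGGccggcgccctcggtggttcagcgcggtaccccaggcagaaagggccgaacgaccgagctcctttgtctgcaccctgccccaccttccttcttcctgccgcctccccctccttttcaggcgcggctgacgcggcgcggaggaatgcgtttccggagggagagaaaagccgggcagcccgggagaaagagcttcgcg
The Itgb5 window held 3 GC boxes, the Itgb1 window 1 and the Itga11 window 0, at a GC content of 65.7%, 67.3% and 68%. Windows were found for 16 of the 24 genes, and the GC box stood in 8 of them, against 35.7% of the 32851 windows of all genes. The TATA box letters TATAAA, searched on both strands, stood in 0 of the 16, against 13.6% of all windows. A match of letters describes the sequence and is not a measured binding site.

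Among alpha chains Itga7, the laminin receptor chain of muscle, averaged 52.0 ± 9.84 RPKM in the old GSH-low libraries, 58.3 ± 1.30 in the old GSH-high libraries and 74.3 ± 8.11 in young libraries (SD, n = 2 each). Itga5, the fibronectin receptor chain, came next and exceeded Itga7 only in replicate 1 of old GSH-low, so the order of these neighbours held in 5 of 6 libraries. Itgav, which binds vitronectin and other proteins with an RGD motif, and Itga8, an RGD-binding chain that pairs with beta1, followed in that order in all 6 libraries. Itga11, Itga6, Itga9, Itga3 and Itga1 averaged between 0.786 and 2.03 RPKM over all libraries, and each neighbouring pair among them held its order in only 3 or 4 libraries. Itga10, a collagen-binding chain, was lowest in mean at 0.375 RPKM.

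Among beta chains Itgb1, the shared partner of most alpha chains in this set, had 177 and 168 RPKM in the old GSH-low libraries, 184 and 188 in the old GSH-high libraries and 171 and 211 in young libraries. Old GSH-low lay below old GSH-high, and the young libraries overlapped both. Itgb5 followed and was the only other beta chain above 2 RPKM in any library. Itgb4, Itgb7, Itgb8 and Itgb2 averaged between 0.556 and 0.880 RPKM. Among laminins the leading chain of each kind was Lama2, the alpha chain of the laminin of muscle fibres, Lamb2 and Lamc1. Lama2 had 16.4 and 15.1 RPKM in the old GSH-low libraries, 14.7 and 14.5 in the old GSH-high libraries and 11.3 and 15.4 in young libraries. Lamb2 had 36.4 and 33.7 RPKM in the old GSH-low libraries, 34.9 and 28.3 in the old GSH-high libraries and 23.6 and 34.3 in young libraries, and Lamb1 lay below it at 2.46 and 2.66, 2.85 and 2.32, and 2.71 and 3.69 RPKM in the same order of groups. For both Lama2 and Lamb2 the higher young library lay above at least 1 old library, and neither passed the test in any comparison.

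**Figure D1:**
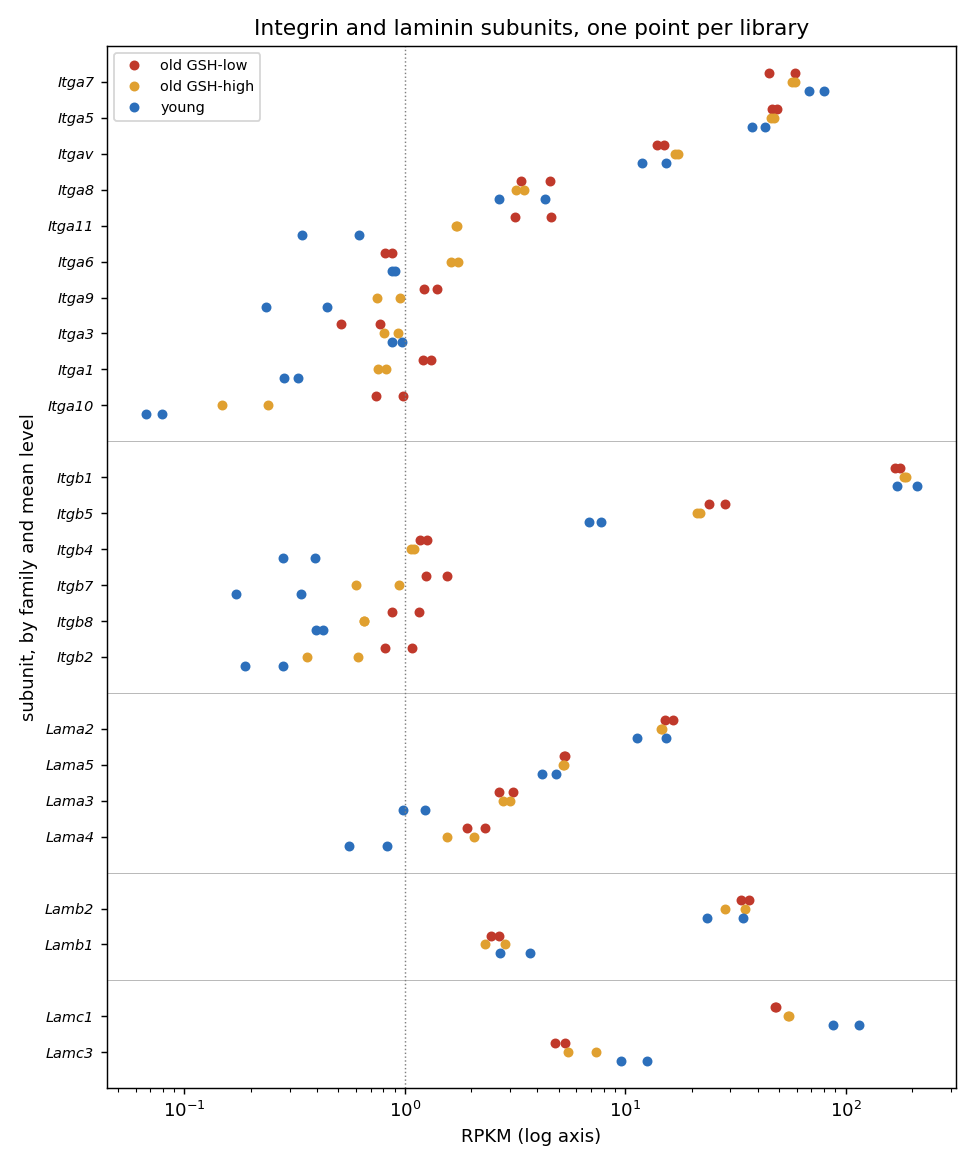
RPKM of the 24 subunits on a log axis, 1 point per library, with old GSH-low above old GSH-high above young in each row and the dotted line at 1 RPKM. Itgb1, Itga7, Itga5, Lamc1 and Lamb2 lie above 20 RPKM in every library, while the old points of Itga11, Itgb4, Itgb5, Lama3 and Lama4 lie to the right of both young points.

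In old GSH-high against young cells, 9 subunits rose and 2 fell, and in old GSH-low against young cells, 8 rose and 3 fell. Those are 11 of 20 tested genes each time, where 28.8% and 36.8% of all tested genes were called. By direction, 15.1% of all tested genes rose and 13.7% fell in old GSH-high against young, and 18.1% rose and 18.7% fell in old GSH-low against young. The test required 1 RPKM in 2 libraries, which 20 subunits met and Itga3, Itga10, Itgb2 and Itgb8 did not. Of the 20, 13 reached it in every group. Itga11, Itgb4 and Lama4 reached it only in old libraries, Itga9, Itga1 and Itgb7 only in old GSH-low and Itga6 only in old GSH-high. These 7 had to be higher there to be tested. Of the 13, those called in old GSH-high against young were Itgb5 and Lama3, higher, and Lamc1 and Lamc3, lower. In old GSH-low against young the same genes were called, with Itga7 lower as well. All other calls against young were of genes that passed the filter only through old libraries. With no filter on level, 11 of 24 subunits were called in old GSH-high against young (9 higher, 2 lower) and 14 of 24 in old GSH-low against young (11 higher, 3 lower), where 27.6% and 35.9% of all 12067 genes were called. Under a filter on the mean RPKM over all 6 libraries, 7 subunits were called in each, since Itgb4, Itgb7, Itga9 and Itga1 then dropped out.

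Without any filter or test, 15 of the 24 subunits had both old GSH-high libraries above both young ones and 3 had both below, against 33.7% and 31.9% of all genes. For old GSH-low against young, 13 were above and 6 below, against 34.7% and 34% of all genes. The median log2 fold change of the 24 was 0.22 in old GSH-high and 0.26 in old GSH-low against young, beside 0.01 and -0.00 over all genes. Over the 13 subunits that reached 1 RPKM in every group it was 0.14 and 0.16. Both comparisons use the same 2 young libraries, so their likeness is not a repeat of the result. The subunits are long genes, with a median exon length of 7529.5 bases, and the 2129 tested genes of at least that length had medians of 0.06 and 0.05.

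**Figure D2:**
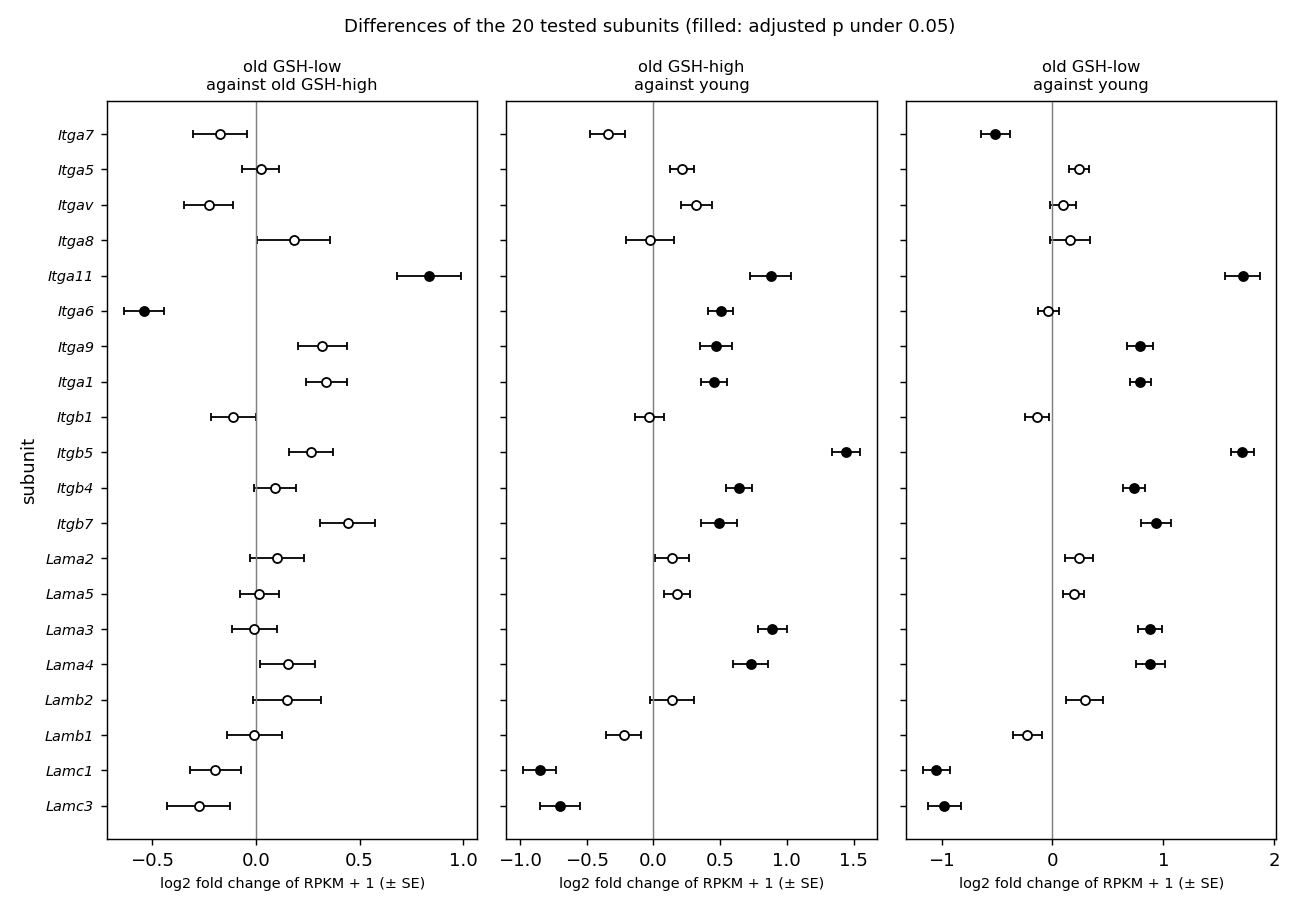
Log2 fold change of RPKM + 1 for the 20 tested subunits in the 3 comparisons, with bars of 1 SE and filled points where the adjusted p was under 0.05. Itga11 and Itga6 are the filled points between the old fractions, and Itgb5 stands furthest right in old GSH-high against young, while Lamc1 and Lamc3 lie left of 0 in both comparisons with young cells.

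The matrix receptor that rose most from a level above the filter in every group was Itgb5, the beta chain that pairs with alphav to bind vitronectin. It had 28.5 and 23.9 RPKM in the old GSH-low libraries, 21.9 and 21.2 in the old GSH-high libraries and 6.85 and 7.74 in young libraries. All 4 old libraries lay above both young ones, and the old fractions did not overlap. The log2 fold change was 1.44 ± 0.10 (SE) in old GSH-high against young (adjusted p = 3.13e-05, limma) and 1.71 ± 0.10 in old GSH-low against young (adjusted p = 7.54e-06). The old fractions differed by 0.27 ± 0.10 (adjusted p = 0.213), which did not pass. Both calls against young held in all 16 alternatives, with log2 fold changes between 1.37 and 1.57 for old GSH-high. By the ratio of mean RPKM in old GSH-high against young, Itga11 (3.57), Itgb4 (3.23) and Itgb7 (3.01) exceeded Itgb5 (2.95), and under some alternatives Itga11 reached 1.90 and Itgb4 1.70 on the log2 scale.

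Its partner Itgav was not called in any comparison with the main settings. Itgav had 15.0 and 13.9 RPKM in the old GSH-low libraries, 17.3 and 16.9 in the old GSH-high libraries and 11.9 and 15.3 in young libraries. Old GSH-high lay above both other groups, and old GSH-low overlapped young. Its log2 fold change was 0.32 ± 0.12 in old GSH-high against young (adjusted p = 0.0689) and 0.09 ± 0.12 in old GSH-low against young (adjusted p = 0.558). In old GSH-high against young it passed with library size alone as the scaling (adjusted p = 0.0437), with limma-voom (0.0408) and without young replicate 2 (0.00548), within a range over 16 alternatives that reached 0.271. Within a library, Itgb5 stood at 1.90 and 1.72 times Itgav in old GSH-low and 1.27 and 1.25 times in old GSH-high, but at 0.576 and 0.506 times in young libraries. Itgb8, an alphav partner that activates latent TGF-beta, had 0.875 and 1.16 RPKM in the old GSH-low libraries, 0.655 and 0.650 in the old GSH-high libraries and 0.396 and 0.423 in young libraries, below the filter.

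The other RGD-binding alpha chains, Itga5 and Itga8, were not called either. Itga5 had 48.7 and 46.2 RPKM in the old GSH-low libraries, 47.3 and 46.1 in the old GSH-high libraries and 37.5 and 42.9 in young libraries, above both young values in every old library. Its log2 fold change was 0.21 ± 0.09 in old GSH-high and 0.24 ± 0.09 in old GSH-low against young, with adjusted p-values of 0.112 and 0.0723. Itga8 had 4.55 and 3.37 RPKM in the old GSH-low libraries, 3.21 and 3.48 in the old GSH-high libraries and 2.66 and 4.32 in young libraries, which overlap throughout.

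Itga7 was lower in old libraries and fell by 0.51 on the log2 scale in old GSH-low against young. It had 45.1 and 59.0 RPKM in the old GSH-low libraries, 59.2 and 57.4 in the old GSH-high libraries and 68.6 and 80.0 in young libraries, so every old library lay below both young ones. The adjusted p for old GSH-low against young was 0.0152 at an SE of 0.13. Without old GSH-low replicate 1 that call was lost (adjusted p = 0.120), likewise without young replicate 2 (0.0572), the range over 16 alternatives reaching 0.120. In old GSH-high against young the log2 fold change was -0.34 ± 0.13 (adjusted p = 0.0829), which passed in 4 of 16 alternatives (adjusted p from 0.0376 to 0.252 over all 16). Itga7 made up 41.0% ± 6.24 of the summed alpha chains in the old GSH-low libraries, 44.3% ± 0.267 in the old GSH-high libraries and 55.2% ± 0.433 in young libraries (SD, n = 2 each). Itgb1, which forms the receptor with it, had log2 fold changes of -0.03 ± 0.11 in old GSH-high and -0.14 ± 0.11 in old GSH-low against young, both uncalled. Its direction was the opposite without young replicate 2 in both comparisons and, in old GSH-high against young, with library size alone as the scaling. Without young replicate 1 it was called as lower in old GSH-low against young (-0.29, adjusted p = 0.0298). Its share of the summed beta chains was 84.9% ± 0.576 in the old GSH-low libraries, 88.3% ± 0.196 in the old GSH-high libraries and 95.7% ± 0.360 in young libraries.

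Itga6, an alternative laminin receptor chain that pairs with beta1 or beta4, set the old fractions apart. It had 0.874 and 0.811 RPKM in the old GSH-low libraries, 1.61 and 1.74 in the old GSH-high libraries and 0.900 and 0.879 in young libraries. Old GSH-high lay above all 4 other libraries. It fell by 0.54 on the log2 scale in old GSH-low against old GSH-high (SE 0.10, adjusted p = 0.0117) and rose by 0.50 ± 0.10 in old GSH-high against young (adjusted p = 0.00510). In old GSH-low against young the difference was -0.04 ± 0.10 (adjusted p = 0.787). The call between the old fractions was lost without any 1 of the 4 old libraries, at adjusted p-values between 0.0536 and 0.105. Endothelial cells express Itga6, and of 19 endothelial markers tested 16 fell in old GSH-low against old GSH-high and 18 rose in old GSH-high against young. Of all tested genes 1.69% fell and 15.1% rose in these comparisons. The summed level of the endothelial markers was 56.7 to 65.8 RPKM in the old GSH-low libraries, 155.9 to 156 in the old GSH-high libraries and 72.3 to 83.9 in young libraries. Pecam1, the CD31 antigen that the sort selected against, had 1.41 and 0.877 RPKM in the old GSH-low libraries, 6.67 and 6.86 in the old GSH-high libraries and 1.81 and 3.02 in young libraries. The part of these cells in the level of Itga6 was not tested.

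Itgb4, the beta chain that pairs with alpha6 alone, was called in the comparisons with young cells and not between the old fractions. It had 1.18 and 1.26 RPKM in the old GSH-low libraries, 1.10 and 1.06 in the old GSH-high libraries and 0.389 and 0.281 in young libraries. It rose by 0.64 ± 0.10 in old GSH-high (adjusted p = 0.00184) and by 0.73 ± 0.10 in old GSH-low against young (adjusted p = 0.000677), and in RPKM the means stood in ratios of 3.23 and 3.64. In old GSH-low against old GSH-high its log2 fold change was 0.09 ± 0.10 (adjusted p = 0.681). Itga3, another laminin receptor chain, had 0.771 and 0.513 RPKM in the old GSH-low libraries, 0.808 and 0.931 in the old GSH-high libraries and 0.968 and 0.873 in young libraries and was below the filter.

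The collagen-binding alpha chains Itga11, Itga1 and Itga10 were highest in old GSH-low. Itga11 had 4.63 and 3.15 RPKM in the old GSH-low libraries, 1.72 and 1.70 in the old GSH-high libraries and 0.343 and 0.617 in young libraries, and the 3 groups did not overlap. It rose by 0.83 ± 0.15 in old GSH-low against old GSH-high (adjusted p = 0.0145), by 0.88 ± 0.15 in old GSH-high against young (adjusted p = 0.00336) and by 1.71 ± 0.15 in old GSH-low against young (adjusted p = 6.72e-05). The old GSH-low mean in RPKM was 8.10 times the young mean. The call between the old fractions was lost with a pseudocount of 0.1 (1.11, adjusted p = 0.0512), without either old GSH-high library (0.0684 and 0.0798) and without old GSH-low replicate 1 (0.0851).

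Itga1 had 1.32 and 1.21 RPKM in the old GSH-low libraries, 0.758 and 0.818 in the old GSH-high libraries and 0.329 and 0.283 in young libraries. It rose by 0.45 ± 0.10 in old GSH-high (adjusted p = 0.00936) and by 0.79 ± 0.10 in old GSH-low against young (adjusted p = 0.000398). Between the old fractions the log2 fold change of 0.34 ± 0.10 did not pass (adjusted p = 0.0964). On whole reads with limma-voom it did (0.68, adjusted p = 0.00715), within a range over 15 alternatives that reached 0.393. The call in old GSH-high against young was lost without old GSH-high replicate 2 (adjusted p = 0.0592). Itga10 had 0.976 and 0.741 RPKM in the old GSH-low libraries, 0.148 and 0.240 in the old GSH-high libraries and 0.0666 and 0.0788 in young libraries. It shares 33.5% of its exon bases with the same-strand gene model Gm42957, so its reads are uncertain.

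Itga11 moved with markers of tenocytes, the cells of tendon. Of 12 tenocyte markers, 11 rose in old GSH-low against old GSH-high, beside 3.69% of all tested genes. The summed level of the list without the early response gene Egr1 was 2690 to 3083 RPKM in the old GSH-low libraries, 647 to 817 in the old GSH-high libraries and 37.5 to 39.7 in young libraries. With Egr1 the sums were 3948 to 4393, 1863 to 2170 and 2340 to 2415 RPKM in the same order of groups. Tnmd, a defining tenocyte gene, had 136 and 124 RPKM in the old GSH-low libraries, 29.6 and 27.2 in the old GSH-high libraries and 2.47 and 3.57 in young libraries. Markers of fibro-adipogenic progenitors summed to 1042 to 1129 RPKM in the old GSH-low libraries, 589 to 639 in the old GSH-high libraries and 501 to 581 in young libraries. Of those 14 markers 5 rose and 2 fell in old GSH-low against old GSH-high, and 11 rose and 1 fell in old GSH-high against young. Col3a1, the 1 that fell, and Dpt, which was not called there, made up most of the young sums. Col3a1 had 89.3 and 101 RPKM, 112 and 120, and 268 and 372 in the same order of groups. Dcn, which rose, had 482 and 405 RPKM, 185 and 163, and 13.9 and 17.8. The closeness of the old GSH-high to the young sums thus does not describe most of the list. Ly6a, which encodes the Sca1 antigen of these progenitors that the sort selected against, had 6.55 and 4.93 RPKM in the old GSH-low libraries, 24.8 and 27.9 in the old GSH-high libraries and 9.20 and 8.42 in young libraries, highest in old GSH-high. The part of these cells in the levels of Itga11 and Itga1 was not tested.

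Itga9, a chain that binds tenascin and osteopontin, rose in both old fractions. It had 1.39 and 1.22 RPKM in the old GSH-low libraries, 0.949 and 0.750 in the old GSH-high libraries and 0.235 and 0.445 in young libraries, with no overlap between any groups. The log2 fold change was 0.47 ± 0.12 in old GSH-high (adjusted p = 0.0186) and 0.79 ± 0.12 in old GSH-low against young (adjusted p = 0.00118). The call for old GSH-high was lost without young replicate 1 (0.0994) or old GSH-high replicate 1 (0.128).

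The 2 leukocyte beta chains were low and highest in old GSH-low. Itgb7, a chain of lymphocyte homing receptors, had 1.24 and 1.55 RPKM in the old GSH-low libraries, 0.600 and 0.939 in the old GSH-high libraries and 0.339 and 0.172 in young libraries. It rose by 0.49 ± 0.13 in old GSH-high (adjusted p = 0.0242) and by 0.93 ± 0.13 in old GSH-low against young (adjusted p = 0.000870). The call for old GSH-high was lost without young replicate 2 (0.0894) or old GSH-high replicate 2 (0.150), and the lowest Itgb7 value rested on 28 reads. Itgb2, the beta chain of leukocytes, had 0.810 and 1.08 RPKM in the old GSH-low libraries, 0.360 and 0.614 in the old GSH-high libraries and 0.189 and 0.279 in young libraries and was not tested under the filter.

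Lymphocyte markers followed the same order of groups. Their summed level over 7 genes was 15.9 to 18.5 RPKM in the old GSH-low libraries, 2.57 to 3.05 in the old GSH-high libraries and 1.09 to 1.18 in young libraries. The B cell gene Cd79a had 9.45 and 7.76 RPKM in the old GSH-low libraries, 1.63 and 1.73 in the old GSH-high libraries and 0.689 and 0.701 in young libraries. Myeloid markers, 8 genes, summed to 64.4 to 67.4 RPKM in the old GSH-low libraries, 65.8 to 68.7 in the old GSH-high libraries and 11.2 to 13.1 in young libraries. Ptprc, the CD45 antigen that the sort selected against, had 0.588 and 0.559 RPKM in the old GSH-low libraries, 0.0537 and 0.109 in the old GSH-high libraries and 0.0027 and 0.0028 in young libraries. The part of leukocytes in the levels of Itgb7 and Itgb2 was not tested.

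Markers of mural cells, the pericytes and smooth muscle cells of vessels, moved in both directions. Of 11 tested, 6 rose and 0 fell in old GSH-low against old GSH-high, 7 rose and 3 fell in old GSH-high against young, and 6 rose and 3 fell in old GSH-low against young. Of all tested genes 3.69%, 15.1% and 18.1% rose and 1.69%, 13.7% and 18.7% fell in these comparisons. The pericyte gene Rgs5 had 15.3 and 14.0 RPKM in the old GSH-low libraries, 7.62 and 8.70 in the old GSH-high libraries and 3.70 and 3.97 in young libraries. Pdgfrb, the receptor of pericytes and fibroblasts, had 14.2 and 11.5 RPKM, 6.21 and 4.98, and 1.31 and 1.95 in the same order of groups. The summed level of the 13 listed genes was highest in young libraries, at 657 to 683 RPKM in the old GSH-low libraries, 698 to 717 in the old GSH-high libraries and 951 to 963 in young libraries, and Des, a filament gene that muscle stem cells also express, made up most of it.

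Other lists moved too. Of 8 tested myofibre markers 7 rose in old GSH-low against old GSH-high, beside 3.69% of all tested genes. The sum over 10 myofibre genes was 59.6 to 61.0 RPKM in the old GSH-low libraries, 26.4 to 29.4 in the old GSH-high libraries and 46.6 to 46.9 in young libraries. All 3 tested adipocyte markers fell in old GSH-low against old GSH-high, beside 1.69% of all tested genes. The sums over 4 adipocyte genes were 2.21 to 3.34 RPKM in the old GSH-low libraries, 48.9 to 69.8 in the old GSH-high libraries and 0.365 to 0.405 in young libraries. Of 7 tested Schwann cell markers 5 rose in old GSH-low against young, beside 18.1% of all tested genes. Between the old fractions 2 rose and 1 fell, and 3 rose in old GSH-high against young, beside 15.1% of all tested genes. The sums over 10 Schwann cell genes were 151 to 160.3 RPKM in the old GSH-low libraries, 138 to 146 in the old GSH-high libraries and 112 to 124 in young libraries. The part of these cells in the levels of the subunits was not tested.

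**Figure D3:**
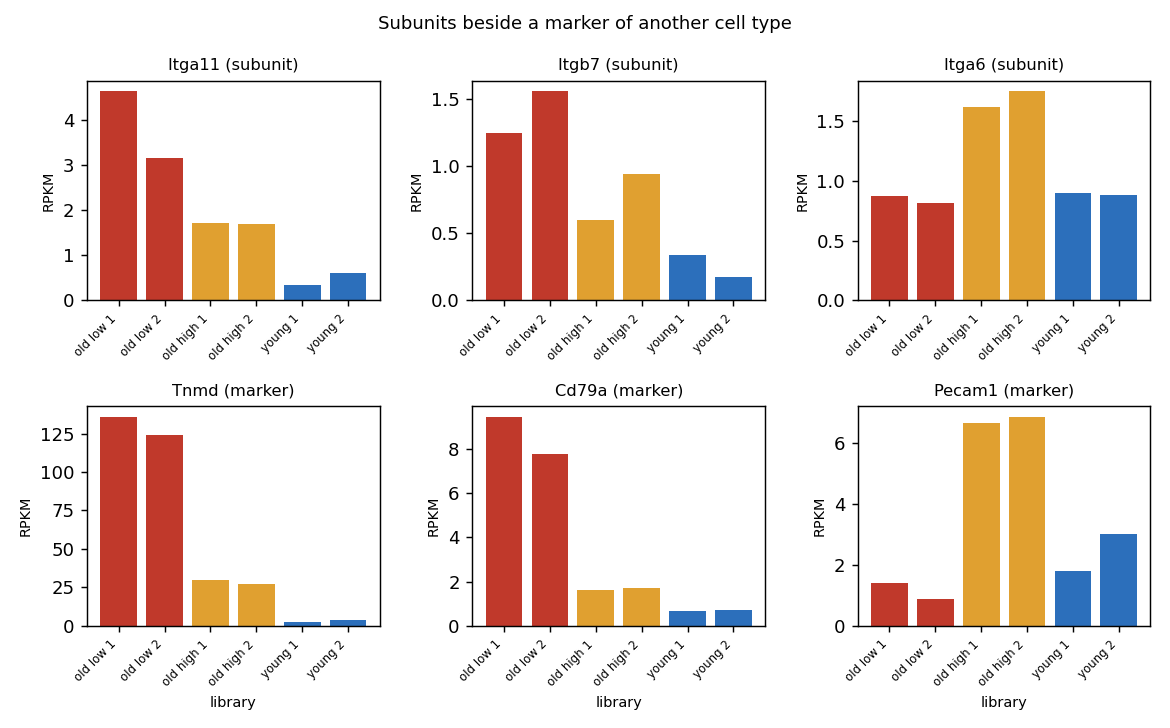
RPKM in each library for 3 subunits (upper row) and for a marker gene of another cell type under each (lower row), with the axis of every panel starting at 0. Itga11 and the tenocyte gene Tnmd, and Itgb7 and the B cell gene Cd79a, are highest in both old GSH-low libraries, while Itga6 and the endothelial gene Pecam1 are highest in both old GSH-high libraries.

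Among laminins, the gamma chains Lamc1 and Lamc3 fell in old cells. Lamc1, the gamma chain of most laminins, had 47.8 and 48.2 RPKM in the old GSH-low libraries, 55.3 and 54.9 in the old GSH-high libraries and 87.3 and 115 in young libraries. The 3 groups did not overlap, and the old libraries of a fraction lay much closer together than the 2 young ones. It fell by 0.85 on the log2 scale in old GSH-high (SE 0.12, adjusted p = 0.00116) and by 1.05 in old GSH-low against young (SE 0.12, adjusted p = 0.000287). The difference between the old fractions was -0.20 ± 0.12 (adjusted p = 0.428). Both calls against young held in all 16 alternatives.

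Lamc3, a gamma chain of more restricted expression, had 5.36 and 4.82 RPKM in the old GSH-low libraries, 7.37 and 5.48 in the old GSH-high libraries and 9.56 and 12.5 in young libraries, with every old library below both young ones. It fell by 0.70 in old GSH-high (SE 0.15, adjusted p = 0.00936) and by 0.97 in old GSH-low against young (SE 0.15, adjusted p = 0.00140). The call for old GSH-high was lost without old GSH-high replicate 2 (adjusted p = 0.0660).

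The laminin alpha chains went the other way where they were called. Lama3 had 3.11 and 2.67 RPKM in the old GSH-low libraries, 3.01 and 2.80 in the old GSH-high libraries and 0.979 and 1.24 in young libraries. It rose by 0.89 ± 0.11 in old GSH-high (adjusted p = 0.000489) and by 0.88 ± 0.11 in old GSH-low against young (adjusted p = 0.000378), and the old fractions overlapped. Lama4, the alpha chain known from vessel walls, had 2.31 and 1.92 RPKM in the old GSH-low libraries, 2.07 and 1.55 in the old GSH-high libraries and 0.558 and 0.826 in young libraries. It rose by 0.73 ± 0.13 in old GSH-high (adjusted p = 0.00417) and by 0.88 ± 0.13 in old GSH-low against young (adjusted p = 0.00117). The part of endothelial and mural cells, whose markers are given above, in the level of Lama4 was not tested. Lama5, a chain of many adult basement membranes, had 5.31 and 5.30 RPKM in the old GSH-low libraries, 5.21 and 5.27 in the old GSH-high libraries and 4.17 and 4.88 in young libraries and was not called.

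The ratio between laminin chains differed with them. Summed within a library, Lamc1 and Lamc3 stood at 1.96 and 2.12 times the 4 alpha chains in old GSH-low, 2.51 and 2.50 times in old GSH-high and 5.70 and 5.73 times in young libraries. These gamma sums were 53.2 and 53.0 RPKM in the old GSH-low libraries, 62.7 and 60.4 in the old GSH-high libraries and 96.9 and 128 in young libraries. The summed alpha chains were 27.2 and 25.0 RPKM, 25.0 and 24.1, and 17.0 and 22.3 in the same order of groups. The ratio varied less between the 2 young libraries than either sum did. These ratios are given as a description, without a test.

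**Figure D4:**
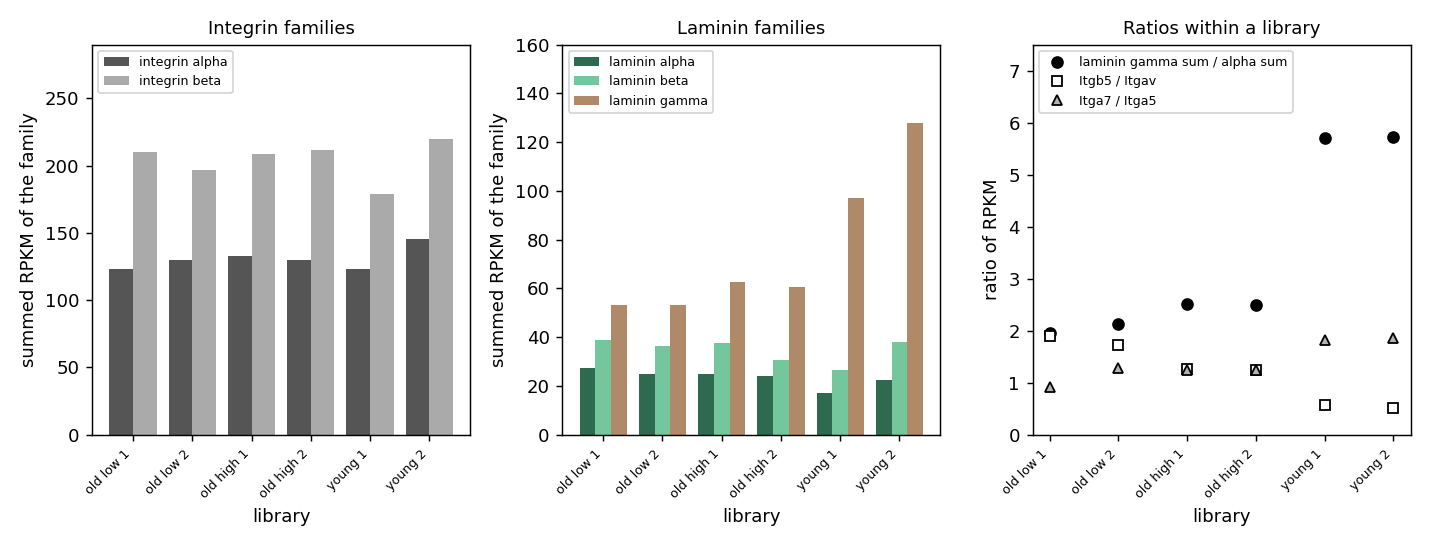
Summed RPKM of the integrin families (left) and laminin families (middle) in each library, and 3 ratios of RPKM within a library (right). Integrin alpha sums run from 123 to 146 and beta sums from 179 to 220 RPKM, the young libraries spanning the whole beta range. Laminin gamma sums (Lamc1 and Lamc3) are 53.0 to 62.7 in old and 96.9 to 128 in young libraries. The ratio of gamma to alpha laminin is 1.96 to 2.51 in old and 5.70 to 5.73 in young libraries.

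Between the old fractions only Itga11 and Itga6 of the 20 tested subunits were called, 1 in each direction, where 5.38% of all tested genes were called, 3.69% higher and 1.69% lower. With no filter 3 of 24 were called (2 higher, 1 lower), Itga10 being added, against 5.7% of all genes. The count was 0 without either old GSH-high library or old GSH-low replicate 1. It was 1 when old GSH-low replicate 2 was left out. Both old GSH-low libraries lay above both old GSH-high ones for 11 of the 24 subunits and below for 6, against 26.7% and 28% of all genes. The median log2 fold change of the 24 was 0.10, beside -0.00 over all genes.

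The partners of these chains in the basement membrane, 18 tested genes, were described in the same way. In old GSH-high against young 8 rose and 5 fell, and in old GSH-low against young 7 rose and 7 fell, shares of 72.2% and 77.8% beside 28.8% and 36.8% of all tested genes. Type IV collagen split by gene. Col4a1, with Col4a2 the main network collagen, had 92.1 and 81.3 RPKM in the old GSH-low libraries, 111 and 99.7 in the old GSH-high libraries and 178 and 265 in young libraries, and Col4a2 fell by 0.99 in old GSH-high and by 1.14 in old GSH-low against young (SE 0.14 each). Col4a5, of a minor network, had 2.63 and 2.80 RPKM in the old GSH-low libraries, 3.37 and 3.09 in the old GSH-high libraries and 0.399 and 0.823 in young libraries and rose in both comparisons. Sparc, a collagen-binding matrix protein, had 225 and 284 RPKM in the old GSH-low libraries, 195 and 236 in the old GSH-high libraries and 742 and 617 in young libraries. Fbln1, a fibulin of basement membranes and elastic fibres, had 30.2 and 27.2 RPKM in the old GSH-low libraries, 10.04 and 8.99 in the old GSH-high libraries and 1.32 and 2.08 in young libraries, and it rose in all 3 comparisons. In old GSH-low against old GSH-high Egflam rose by 0.79 ± 0.10 and Tinagl1 fell by 0.78 (SE 0.14).

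Of 26 tested ligands of integrins, 14 rose and 2 fell in old GSH-high against young, and 13 rose and 3 fell in old GSH-low against young, a share of 61.5% each time, beside 28.8% and 36.8% of all tested genes. Tnc, the tenascin that the alpha9 chain binds, had 37.4 and 34.3 RPKM in the old GSH-low libraries, 20.9 and 19.4 in the old GSH-high libraries and 9.06 and 11.1 in young libraries. Postn, periostin, had 12.3 and 11.9 RPKM in the old GSH-low libraries, 6.53 and 6.60 in the old GSH-high libraries and 0.715 and 1.64 in young libraries. Between the old fractions 4 rose and 2 fell, 23.1% beside 5.38% of all tested genes: Edil3 rose by 1.09 ± 0.11, and Icam2, an endothelial ligand of leukocyte integrins, fell by 0.87 (SE 0.10). That count of 6 was larger without either young library and smaller without either old GSH-high library or old GSH-low replicate 2. The 16 of old GSH-high against young became fewer without old GSH-high replicate 1. The number called over all genes moved the same way each time. Ccn1, a matricellular ligand, fell by 0.88 in old GSH-high and by 0.83 in old GSH-low against young (SE 0.10 each). Vcam1, the antigen used for the sort and a ligand of alpha4 and alpha9 integrins, had 186 and 172 RPKM in the old GSH-low libraries, 207 and 198 in the old GSH-high libraries and 169.9 and 177 in young libraries and was not called. Several of these matrix genes are also made by tenocytes and fibro-adipogenic progenitors, whose marker sums are given above, and the part of those cells was not tested.

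Of 26 tested genes of other laminin receptors and the dystrophin complex, 5 rose and 7 fell in old GSH-high against young, and 6 rose and 7 fell in old GSH-low against young, shares of 46.2% and 50% beside the same 28.8% and 36.8% of all tested genes. Dag1, which encodes dystroglycan, had 177 and 191 RPKM in the old GSH-low libraries, 182 and 200.1 in the old GSH-high libraries and 318 and 374 in young libraries. It fell by 0.85 in old GSH-high (SE 0.11, adjusted p = 0.000543) and by 0.90 in old GSH-low against young (SE 0.11, adjusted p = 0.000293). Bcam, a receptor of the alpha5 laminin chain, had 7.43 and 8.66 RPKM in the old GSH-low libraries, 12.6 and 13.4 in the old GSH-high libraries and 22.5 and 23.1 in young libraries. It was the 1 gene of the list called between the old fractions, lower by 0.63 in old GSH-low (SE 0.09), and that call was lost without old GSH-high replicate 2. The intracellular syntrophin Sntb1 rose by 0.67 ± 0.09 in old GSH-high and by 0.73 ± 0.09 in old GSH-low against young. Without old GSH-high replicate 1, fewer of the list were called in old GSH-high against young. The same held in old GSH-low against young without old GSH-low replicate 1. The number called over all genes fell in both cases too.

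The adhesion machinery links integrins to the cytoskeleton. Of its 32 tested genes, 4 rose and 3 fell in old GSH-high against young and 5 rose and 3 fell in old GSH-low against young, shares of 21.9% and 25%, below the 28.8% and 36.8% of all tested genes. Fermt2, the kindlin that activates beta1 integrins, fell by 0.46 in old GSH-high and by 0.59 in old GSH-low against young (SE 0.09 each), with 41.2 and 44.5 RPKM in the old GSH-low libraries, 46.0 and 47.5 in the old GSH-high libraries and 67.7 and 62.3 in young libraries. Between the old fractions Tns3, a tensin, rose by 0.51 ± 0.12 and Lims2, a PINCH adaptor, fell by 0.79 (SE 0.11). Without any 1 of the 4 old libraries fewer genes of the list were called there. Without young replicate 2, more of the list were called in both comparisons with young. Fewer were called in old GSH-high against young without either old GSH-high library. The same held in old GSH-low against young without old GSH-low replicate 1. The number called over all genes moved the same way each time. Of 14 tested tetraspanins and other membrane partners, 3 rose and 1 fell in old GSH-high against young, and 5 rose and 2 fell in old GSH-low against young, shares of 28.6% and 50% beside 28.8% and 36.8% of all tested genes. The leukocyte tetraspanins Cd53 and Cd37 rose between the old fractions, by 1.63 ± 0.14 and 1.23 ± 0.11, and without either young library more of the 14 were called there. More were also called in old GSH-high against young without young replicate 2. Fewer were called in old GSH-low against young without old GSH-low replicate 2. The number called over all genes again moved the same way each time.

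The young libraries also differed from each other. Young replicate 2 exceeded young replicate 1 in 16 of the 20 tested subunits, beside 45.8% of all tested genes. The subunit median was 0.23 on the log2 scale, beside -0.02 over all tested genes and 0.07 over genes of at least 7529.5 bases. Without young replicate 2, Itga5 was called as higher in both old fractions than in young cells (adjusted p = 0.0226 and 0.0151), and so were Lama2 (0.0218 and 0.00687) and Lamb2 (0.0433 and 0.0116). Itgav was then called as higher in old GSH-high (0.00548) and Lama5 in old GSH-low (0.0426). Without young replicate 1, Itgb1 (0.0298) and Lamb1 (-0.40, 0.0457) were called as lower in old GSH-low than in young cells. The number of subunits called against young cells also changed with the library left out. With library size alone as the scaling, the share of called genes that were higher was 63.1% in old GSH-high and 60.1% in old GSH-low against young, beside 52.4% and 49.2% with the deposited scaling.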

How the data were processed

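RNA-seq of 6 libraries was deposited by the authors as 1 table of RPKM values for 12067 genes. The submitters' processing notes name Trim Galore, STAR, featureCounts, Subread, edgeR and the build mm10 (GRCm38), with no versions; per the labels, cDNA was primed with oligo(dT) and sequenced single-end. Strand setting and RPKM options are not given in the sources used here. Whole reads were recovered from the deposited RPKM with exon lengths of GENCODE M21: 11814 of 12067 genes (97.9%) came out whole within 0.02 reads plus a relative 3e-07, 22 of the 24 subunits among them, the rest through their common step. Library totals ran from 46993220 to 68786190 reads, so a count of 3 reads, the limit that a count of 0 allows, was 0.0436 to 0.0638 CPM, for counting error only. No value of the table is 0, since zeros had been replaced by a small value; no subunit held one.

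The main test was limma 3.58.1 (R 4.3.3) with an intensity trend on log2(RPKM + 1), for 10609 genes with an RPKM of 1 reached in at least 2 libraries (1458 removed). It fitted 1 mean per group to all 6 libraries, which leaves 3 residual degrees of freedom, and was two-sided with Benjamini-Hochberg adjustment. Old GSH-low was set against old GSH-high, and each against young. Alternatives were no filter, a filter on mean RPKM, a pseudocount of 0.1, 2 other scalings, limma-voom on the recovered reads, 4 libraries only, a replicate block, each library left out and, chosen after seeing the data, removal of a length and GC trend (loess span 0.3, 10544 genes) and replaced zeros set to 0. The fit was also run on simulated data, with the same relative spread set for every gene and few genes changed. That setting is simpler than these libraries, and no result here rests on it. Levels in all 6 libraries are given for called subunits and the leading chain of each family, and genes of other lists were named by order of p, up to 3 per direction; results for some genes are not reported here. The subunits and the gene lists were chosen with earlier results of these data known. Start regions are from RefSeq (GRCm38.p6); Python 3.11.15, numpy 2.4.6, pandas 2.3.3 and matplotlib 3.10.9 were used.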

Additional observations from a re-analysis of the deposited data

How the results depend on the processing

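Of the log2 fold changes of single subunits under all alternatives, 904 kept direction and side of the threshold, 19 newly passed it, 16 no longer passed and 21 changed sign. The 904 include Itga3, Itga10, Itgb2 and Itgb8, which had no main test and so no side of the threshold. Their only alternative was the fit with no filter, which also gave their main value. Their place among the 904 was therefore fixed in advance and shows no stability. Without the filter, Itga10, Itgb2 and Itgb8 were called as higher in old GSH-low against young, and Itga10 also between the old fractions. In old GSH-low against old GSH-high, all genes called were 571, and 864 with only the 4 libraries of the comparison. Leaving out 1 library gave 312 to 863 there, 1493 to 3802 in old GSH-high against young (3051 with all libraries; 1493 and 1816 without old GSH-high replicate 1 and 2) and 2068 to 4295 in old GSH-low against young (3901 with all; 2068 without old GSH-low replicate 1). For subunits these ranges were 0 to 2, 8 to 14 and 10 to 14. On the recovered reads limma-voom called 641, 3375 and 3952 genes. With a pseudocount of 0.1, 1 subunit was called between the old fractions. With a filter on mean RPKM 7 were called in each comparison with young cells, because it tests fewer subunits. With the replicate number as a block, 479, 2559 and 3350 genes and 2, 11 and 11 subunits were called; the correlations of replicate differences were 0.07, -0.14 and -0.26, so the numbers are not shown to pair the libraries.

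Signs changed for uncalled subunits. With length and GC trends removed, Itga5 (-0.036), Lama5 (-0.11) and Itgb4 (-0.0088) did so between the old fractions; with library size alone, Itga8 (0.021) and Itgb1 (0.030) did in old GSH-high against young. With 1 library left out, the ranges in old GSH-low against old GSH-high were -0.016 to 0.061 for Itga5, -0.36 to 0.017 for Itga7, -0.088 to 0.074 for Lama3 and -0.11 to 0.10 for Lamb1. In old GSH-high against young they were -0.29 to 0.24 for Itga8, -0.18 to 0.12 for Itgb1, -0.068 to 0.34 for Lama2 and -0.12 to 0.40 for Lamb2. In old GSH-low against young they were -0.11 to 0.43 for Itga8, -0.077 to 0.26 for Itgav and -0.29 to 0.012 for Itgb1. The cause was not tested. Depth limits Itga10, Itgb7 and Itgb2 most, whose lowest values rest on 21, 28 and 35 reads.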

Other observations

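Itgbl1, an integrin beta-like gene whose product lacks the membrane span of a beta chain, fell outside the rule for subunits and was chosen after its values were seen. It had 34.8 and 28.2 RPKM in the old GSH-low libraries, 12.9 and 11.2 in the old GSH-high libraries and 0.552 and 0.942 in young libraries, and the 3 groups did not overlap. It rose by 1.31 ± 0.14 (SE) on the log2 scale in old GSH-low against old GSH-high (adjusted p = 0.000770, limma), by 2.91 ± 0.14 in old GSH-high against young and by 4.22 ± 0.14 in old GSH-low against young. Itgbl1 is known from tendon and cartilage, and the tenocyte marker Tnmd followed the same order of groups. Itga2b, the platelet integrin chain, had 1.71 and 2.61 RPKM in the old GSH-low libraries, 2.88 and 2.46 in the old GSH-high libraries and 1.49 and 1.31 in young libraries. It rose by 0.61 ± 0.14 in old GSH-high against young (adjusted p = 0.0136) and was not called in the other comparisons.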
